A study of Mus musculus with 10 samples.

Results

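The 35 heat shock protein and cochaperone genes described here were taken by symbol from a table of 26312 genes measured in sorted mouse mammary epithelial cells. They comprise 7 genes of the HSP70 and HSP110 family, 7 of HSP90 and its cochaperones, 10 of the HSP40 family, which share a J domain, 4 small HSP and BAG genes, 5 mitochondrial chaperone genes and 2 heat shock factors. All 35 were in the table, and all 35 had a mean high enough to be tested.

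The cells came from the 4th mammary glands of C57BL/6J mice aged 12 wk and were sorted as EpCAM-high, CD49f-low, Sca1-positive and CD49b-negative, a gate that holds the hormone-sensing luminal cells. WT mice carried the genotype RSK2(+/+) and KO mice RSK2(-/-). RSK2, encoded by Rps6ka3, is a kinase activated by ERK1/2, and the series title asks about its part in estrogen homeostasis. Glands were taken at estrus or at diestrus, giving 3 WT estrus, 2 WT diestrus, 3 KO estrus and 2 KO diestrus libraries, 10 in all. The labels name no agent given to the mice, and they do not say whether the deletion covers the whole animal or whether a library is 1 mouse or a pool. The p-values therefore measure the spread between libraries, which may in part be technical.

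The values are the authors' normalized read counts, whole numbers that are not divided by gene length, and they summed to between 14108057 and 15307238 per library. Rps6ka3 was at 128 to 165 normalized counts in the WT libraries and at 156 to 165 in the KO libraries. Its KO minus WT difference, averaged over both stages, was 0.17 on the log2 scale (SE 0.13, limma adjusted p = 0.561), so it was not lower in KO. The count covers the whole gene and not the changed part, and it does not check the genotype labels. All 8 hormone-sensing luminal markers were present: Krt8, a luminal keratin, was at 117649 to 191522, Esr1, the estrogen receptor alpha gene, at 1468 to 3334, and Pgr, the progesterone receptor gene, at 748 to 1688 normalized counts. In such bulk samples, fewer cells of a type and less RNA per cell cannot be told apart.

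Heat shock proteins bind unfolded stretches of other proteins and keep them from aggregating while they fold. HSP70 works in cycles with J-domain proteins, which deliver clients, and with nucleotide exchange factors of the HSP110 and BAG families, which release them. HSP90 completes the folding of kinases and of steroid receptors, the estrogen and progesterone receptors among them, and in mitochondria the HSP60 and HSP10 chaperonin folds imported proteins. When proteins are damaged, the factor HSF1 binds repeats of the letters GAA in alternating orientation and switches on many of these genes. Digestion of tissue into single cells is known to raise heat shock transcripts, every library here went through it, and its part in the levels was not tested.

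Promoter sequences of 6 genes on which the results turn are shown so that these repeats can be seen beside the values. They come from RefSeq on GRCm38.p6, where 29 of the 35 genes had an entry; those not matched were Hspa8, Hsp90aa1, Hsp90ab1, Dnajc2, Hspa9 and Hsf1. Each is the 150 bases just before the start of transcription, written 5′ to 3′ on the strand of the gene. Capitals mark each GAANNTTC or TTCNNGAA, a pair of repeats facing each other, found on either strand and with overlapping matches joined. The windows are chr1:55087998-55088147 on the plus strand for Hspe1, chr5:29735748-29735897 on the plus strand for Dnajb6 and chr17:34972157-34972306 on the minus strand for Hspa1a. Those of Hspa1b, Hsph1 and Hspa4, all on the minus strand, are chr17:34959239-34959388, chr5:149636337-149636486 and chr11:53300480-53300629.
Hspe1: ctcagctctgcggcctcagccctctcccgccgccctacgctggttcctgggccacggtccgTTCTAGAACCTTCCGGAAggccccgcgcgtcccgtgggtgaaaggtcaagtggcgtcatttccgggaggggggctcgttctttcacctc
Dnajb6: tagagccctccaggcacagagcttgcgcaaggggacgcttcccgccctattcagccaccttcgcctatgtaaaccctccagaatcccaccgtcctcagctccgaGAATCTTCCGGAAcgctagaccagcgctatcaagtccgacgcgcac
Hspa1a: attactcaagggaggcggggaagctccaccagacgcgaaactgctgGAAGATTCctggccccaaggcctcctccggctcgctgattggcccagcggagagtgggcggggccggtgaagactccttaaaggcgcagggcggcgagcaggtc
Hspa1b: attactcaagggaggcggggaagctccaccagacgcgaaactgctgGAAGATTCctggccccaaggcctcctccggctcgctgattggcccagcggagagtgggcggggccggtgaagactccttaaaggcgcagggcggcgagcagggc
Hsph1: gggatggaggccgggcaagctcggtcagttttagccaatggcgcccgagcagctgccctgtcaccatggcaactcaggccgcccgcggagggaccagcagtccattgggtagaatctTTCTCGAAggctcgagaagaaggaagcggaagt
Hspa4: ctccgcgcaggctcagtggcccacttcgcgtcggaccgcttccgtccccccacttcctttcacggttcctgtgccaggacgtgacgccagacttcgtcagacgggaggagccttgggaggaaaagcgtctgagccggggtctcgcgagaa

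Hspe1 and Hspd1 lie head to head, so the capitals of Hspe1 are also repeats of Hspd1, read from the other strand between its starts at 55087932 and 55088243 on chromosome 1. Over the 250 bases before any start, the longer motif GAANNTTCNNGAA, searched on both strands, was in 3 of the 29 genes (Dnajb6, Hspd1 and Hspe1), 10.3%, against 0.514% of 27025 genes in the RefSeq table. The shorter pair, which the longer motif contains, was in 11 of 29, 37.9% against 14.5%. CCAAT was in 12 of 29, 41.4% against 37.5%, and the GC box GGGCGG in 25 of 29, 86.2% against 35.4%. Hspa1a and Hspa1b carry the same pair at the same distance, 104 bases before their starts, and Hspa4 has no capitals. A match describes letters and is not a measured binding site.

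Chaperone transcripts were abundant in every group. Together the 35 genes held 0.814% to 1.17% of all normalized counts, with the highest share in KO estrus 3 and the lowest in KO diestrus 1. Per kilobase of the longest annotated transcript and averaged over the 10 libraries, Hspb1 was the most abundant at 9975 normalized counts per kb, followed by Hsp90ab1 at 7727, Hspa1b at 6085, Hspa1a at 4633 and Hspa8 at 4155. Hspa4l at 21.7 and Hsf2 at 6.60 normalized counts per kb were the lowest. The first places changed with the library: Hspb1 was above Hsp90ab1 per kb in 7 of 10 libraries, all 6 at estrus and 1 of 4 at diestrus. The stress-inducible Hspa1b stood above the constitutive Hspa8 per kb in 9 of 10 libraries, and Hspa1a did so in 6, namely the 5 WT libraries and 1 of the 5 KO libraries. Of the 50-base windows of their transcripts, 66.3% for Hspa1a, 62.3% for Hspa1b, 52.7% for Hspa8 and 51.7% for Hspb1 occur also in other genes. For Hsp90ab1 it is 4.49%, so the order may depend on how shared reads were counted.

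Few of the genes differed between groups. In the limma test on log2(value + 1), adjusted over the 15180 genes with a mean of at least 10, 3 of the 35 genes passed an adjusted p of 0.05. All 3 did so between the stages in KO, where Hspe1, the mitochondrial HSP10, rose at estrus, and Hspa9, the mitochondrial HSP70, and Hspa4, an HSP110, fell. Of all tested genes 16.6% passed there, 7.67% higher and 8.95% lower, so the share of the 35 lay below that of all genes. KO against WT called 0 of 35 at estrus (limma, 6 with an unadjusted p under 0.05), 0 at diestrus (1 unadjusted) and 0 averaged over both stages (3 unadjusted), against 4.2%, 0.0395% and 0.665% of all genes. Of all 15180 tested genes, 3919, 899 and 2235 had an unadjusted p under 0.05 in these comparisons. Estrus against diestrus in WT called 0 of 35 (limma, 1 unadjusted), and the interaction of genotype and stage also called 0 (1 unadjusted). In both of these, limma called 0% of all tested genes too, with 588 and 2150 genes at an unadjusted p under 0.05. A difference that misses the threshold is not shown to be absent, since groups of 2 or 3 libraries leave wide errors.

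**Figure D1:**
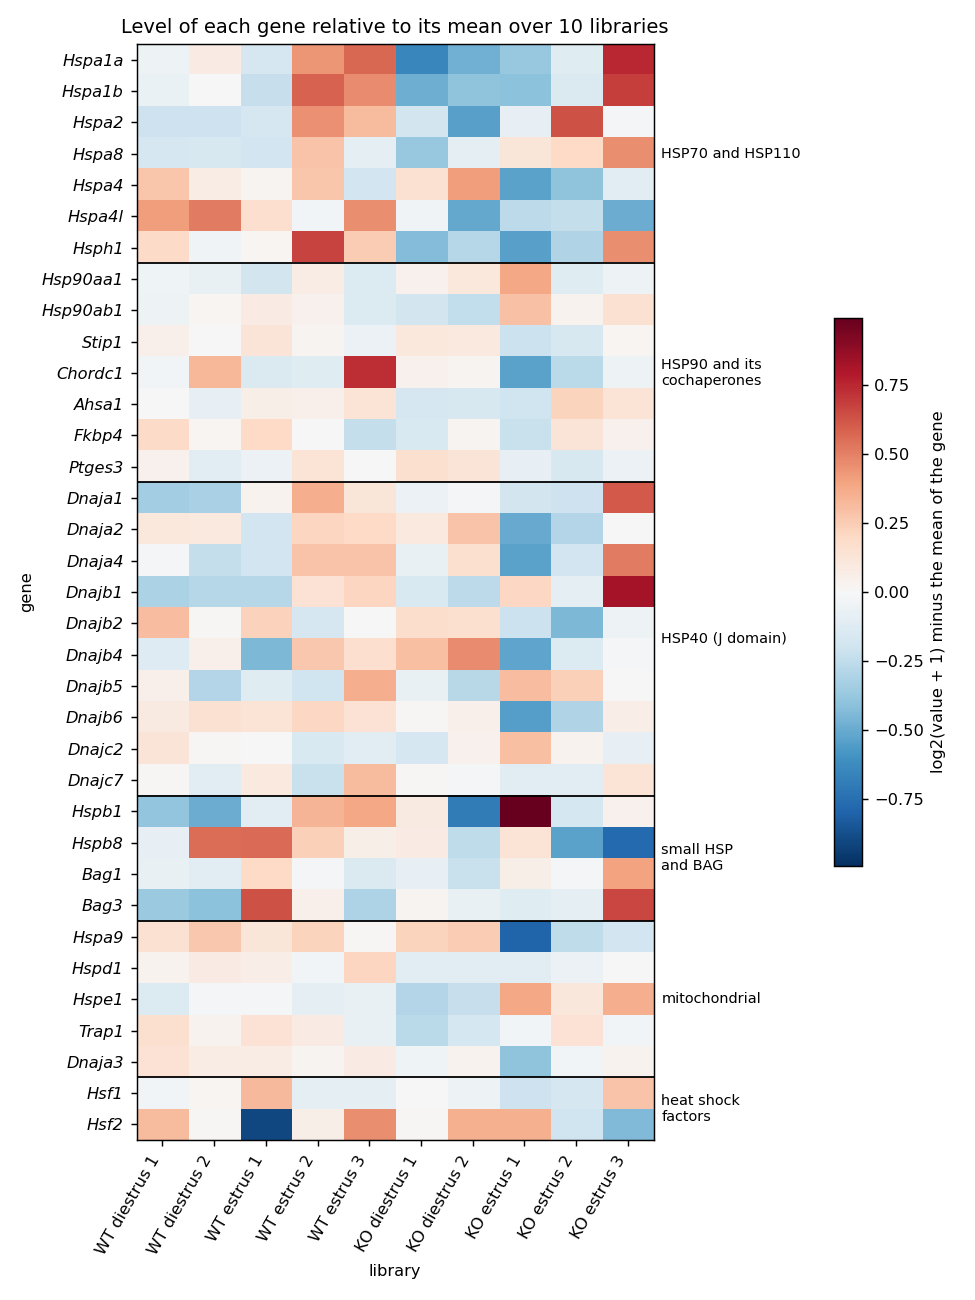
Rows are the 35 genes and columns the 10 libraries; colour is log2(normalized count + 1) minus the mean of the gene over all libraries, and black lines part the families. Hspa1a and Hspa1b have like colours in each library, and KO estrus 1 and KO estrus 3 differ from each other for many genes although they belong to the same group.

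The plot of all genes by library shows how far apart single libraries of KO estrus lie. KO estrus 3 was the highest library for 8 of the 35 genes, and KO estrus 1 was the lowest for 12. The median deviation of the 35 genes from their own means was 0.03 in KO estrus 3, -0.18 in KO estrus 1 and -0.14 in KO estrus 2, on the log2 scale. The median KO minus WT difference at estrus was -0.10, with 11 genes above 0 and 24 below, beside -0.01 over all tested genes. This median followed the library left out: omitting KO estrus 1 gave -0.0064 and omitting KO estrus 3 gave -0.22.

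The inducible HSP70 genes Hspa1a and Hspa1b encode nearly identical proteins and are neighbours on chromosome 17 (GRCm38, 34969190 to 34972156 and 34956436 to 34959238, minus strand). Hspa1a was at 11686, 17713 and 19492 normalized counts in WT estrus, 12640 and 13878 in WT diestrus, 10127, 12062 and 22068 in KO estrus, and 8376 and 9405 in KO diestrus. Both KO diestrus libraries lay below all the others, while the KO estrus libraries ran from near the bottom to the top of the whole range. Hspa1b was at 13992, 24477 and 22631 normalized counts in WT estrus, 15606 and 16364 in WT diestrus, 12352, 14780 and 26264 in KO estrus, and 11682 and 12415 in KO diestrus. It followed Hspa1a, with a ratio of Hspa1b to Hspa1a between 1.16 and 1.40 in all 10 libraries. Hspa1a had the largest stage difference of its family in KO, 0.65 on the log2 scale (SE 0.31), but it did not pass the test (limma adjusted p = 0.158). Without KO estrus 3 that difference was 0.32 (limma adjusted p = 0.375), and it was 0.41 with the replicate number as a block. Of the 50-base windows of the Hspa1a transcript 66.3% occur also in other genes, mostly Hspa1b, and 62.3% the other way round, so how the reads were split between the pair is uncertain.

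Hspa8, the constitutive HSP70, was at 11348, 15737 and 12146 normalized counts in WT estrus, 11553 and 11587 in WT diestrus, 14040, 14867 and 17820 in KO estrus, and 9951 and 12174 in KO diestrus. The 3 KO estrus libraries were above both KO diestrus libraries and overlapped those of WT estrus. Reads of Hspa8 are also uncertain, since 52.7% of its windows occur in other genes, mostly in Gm15459. Hspa2, an HSP70 best known from the testis, had the largest stage difference of the family in WT, 0.41 on the log2 scale (SE 0.24, limma adjusted p = 1.0). It was at 491, 755 and 686 normalized counts in WT estrus against 477 and 477 in WT diestrus, with no overlap. Its stages did not overlap in KO either, where it was at 521, 851 and 543 at estrus and 484 and 379 at diestrus. Outside the rule for printed differences, and chosen after its values were seen, the stage difference of Hspa2 in KO was 0.54 (SE 0.24, limma adjusted p = 0.139).

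Among the HSP110 genes, whose proteins reload HSP70 with nucleotide, Hspa4 fell at estrus in KO. It was at 4977, 5892 and 4288 normalized counts in WT estrus, 5888 and 5140 in WT diestrus, 3382, 3706 and 4542 in KO estrus, and 5417 and 6507 in KO diestrus. All 3 KO estrus libraries lay below both KO diestrus libraries, and the highest of them overlapped the lowest of WT estrus. The estrus minus diestrus difference in KO was -0.63 on the log2 scale (SE 0.18, limma adjusted p = 0.0394), a level 1.54 times lower at estrus, and no other gene had a window in common with Hspa4. The interaction, in which Hspa4 had the largest value of its family, was -0.49 (SE 0.26, limma adjusted p = 0.405). The call was lost without WT diestrus 1 or 2, with the difference still at -0.63 (limma adjusted p = 0.0567 and 0.0566). It was also lost at -0.53 and -0.60 without KO estrus 1 or 2 (limma adjusted p = 0.0983 and 0.0836) and at -0.76 and -0.49 without KO diestrus 1 or 2 (limma adjusted p = 0.101 and 0.288). With the trend on transcript length and GC content removed the stage difference of Hspa4 in KO was -0.36 (limma adjusted p = 0.207) and its interaction -0.26 (limma adjusted p = 0.717).

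Hspa4l, a weakly expressed HSP110, was lower in every KO library than in every WT library. It was at 224, 196 and 276 normalized counts in WT estrus, 266 and 286 in WT diestrus, 167, 169 and 142 in KO estrus, and 195 and 140 in KO diestrus. The closest libraries of the 2 genotypes were 1 count apart. The averaged KO minus WT difference was -0.63 on the log2 scale (SE 0.15) and did not pass the test (limma adjusted p = 0.0981). It was also the largest of the family at estrus (-0.53, SE 0.19, limma adjusted p = 0.108) and at diestrus (-0.74, SE 0.23, limma adjusted p = 0.536). Under the alternatives the averaged difference stayed between -0.75 and -0.51, and it passed the threshold in none of them (limma adjusted p from 0.0540 to 0.462). At estrus the difference of Hspa4l was -0.25 with the length and GC trend removed (limma adjusted p = 0.495).

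Complete separation of the 5 KO from the 5 WT libraries was found for 2 of the 35 genes, both lower in KO: Hspa4l and Dnajb6. Of all tested genes, 1.15% were lower and 1.05% higher in that way, and 0 of the 35 were higher. Within a stage, separation is common with so few libraries. At estrus 1 of the 35 genes was higher in KO without overlap, against 12.9% of all tested genes, and 4 were lower, against 13.1%. The gene higher was Hspe1, and those lower were Hspa4l, Dnajb6, Hspa9 and Ptges3. At diestrus, with 2 libraries a group, 7 were higher and 11 lower without overlap, against 21.4% and 21.6%.

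The remaining HSP110, Hsph1, followed the inducible HSP70 genes. It was at 311, 489 and 366 normalized counts in WT estrus, 350 and 299 in WT diestrus, 211, 249 and 422 in KO estrus, and 228 and 252 in KO diestrus. Apart from KO estrus 3, all KO libraries lay below all WT libraries. In a comparison of Hspa1a with each of the other 34 genes over the 10 libraries on the log2 scale, 26 had a Pearson's r above 0. Hspa1b had r = 0.980 (permutation p = 1e-05, the smallest that the resamples can give, adjusted p = 0.00034 over 34 relations) and Spearman's rho = 0.976 (permutation p = 5e-05, adjusted p = 0.0017). Of the windows of Hspa1a 66.3% occur in other genes, mostly Hspa1b, so the counts of this pair are not independent. The part of shared reads in their r was not tested. Hsph1 had r = 0.861 (permutation p = 0.00184, adjusted p = 0.0313) and rho = 0.830 (permutation p = 0.00446, adjusted p = 0.0758). Without the 2 libraries farthest from the median of Hspa1a, KO estrus 3 and WT estrus 3, r was 0.961 for Hspa1b and 0.868 for Hsph1. The other 32 relations did not pass; Dnajb1 had r = 0.674 (permutation p = 0.0278, adjusted p = 0.216), which fell to 0.182 without those 2 libraries.

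Within groups, r with Hspa1a was also high for several J-domain genes, though without a test. Taking each library's deviation from its group mean, r with Hspa1a was 0.980 for Hspa1b, 0.948 for Dnaja2, 0.948 for Dnaja4, 0.867 for Dnajb1, 0.862 for Hsph1 and 0.860 for Dnaja1. Others moved the opposite way, with r = -0.709 for Dnajc2, -0.703 for Hspb8, -0.438 for Trap1 and -0.432 for Hsp90ab1. These are descriptions over 10 libraries and 4 group means, with no test, and no library was left out for them. The r of the levels themselves, without KO estrus 3 and WT estrus 3, was low for the J-domain genes. It was 0.183 for Dnaja2, 0.328 for Dnaja4, 0.182 for Dnajb1 and 0.291 for Dnaja1. In KO estrus 3, Hspa1a, Hspa1b, Hspa8, Dnaja1, Dnaja4, Dnajb1, Bag1 and Bag3 were each at their highest of all 10.

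**Figure D2:**
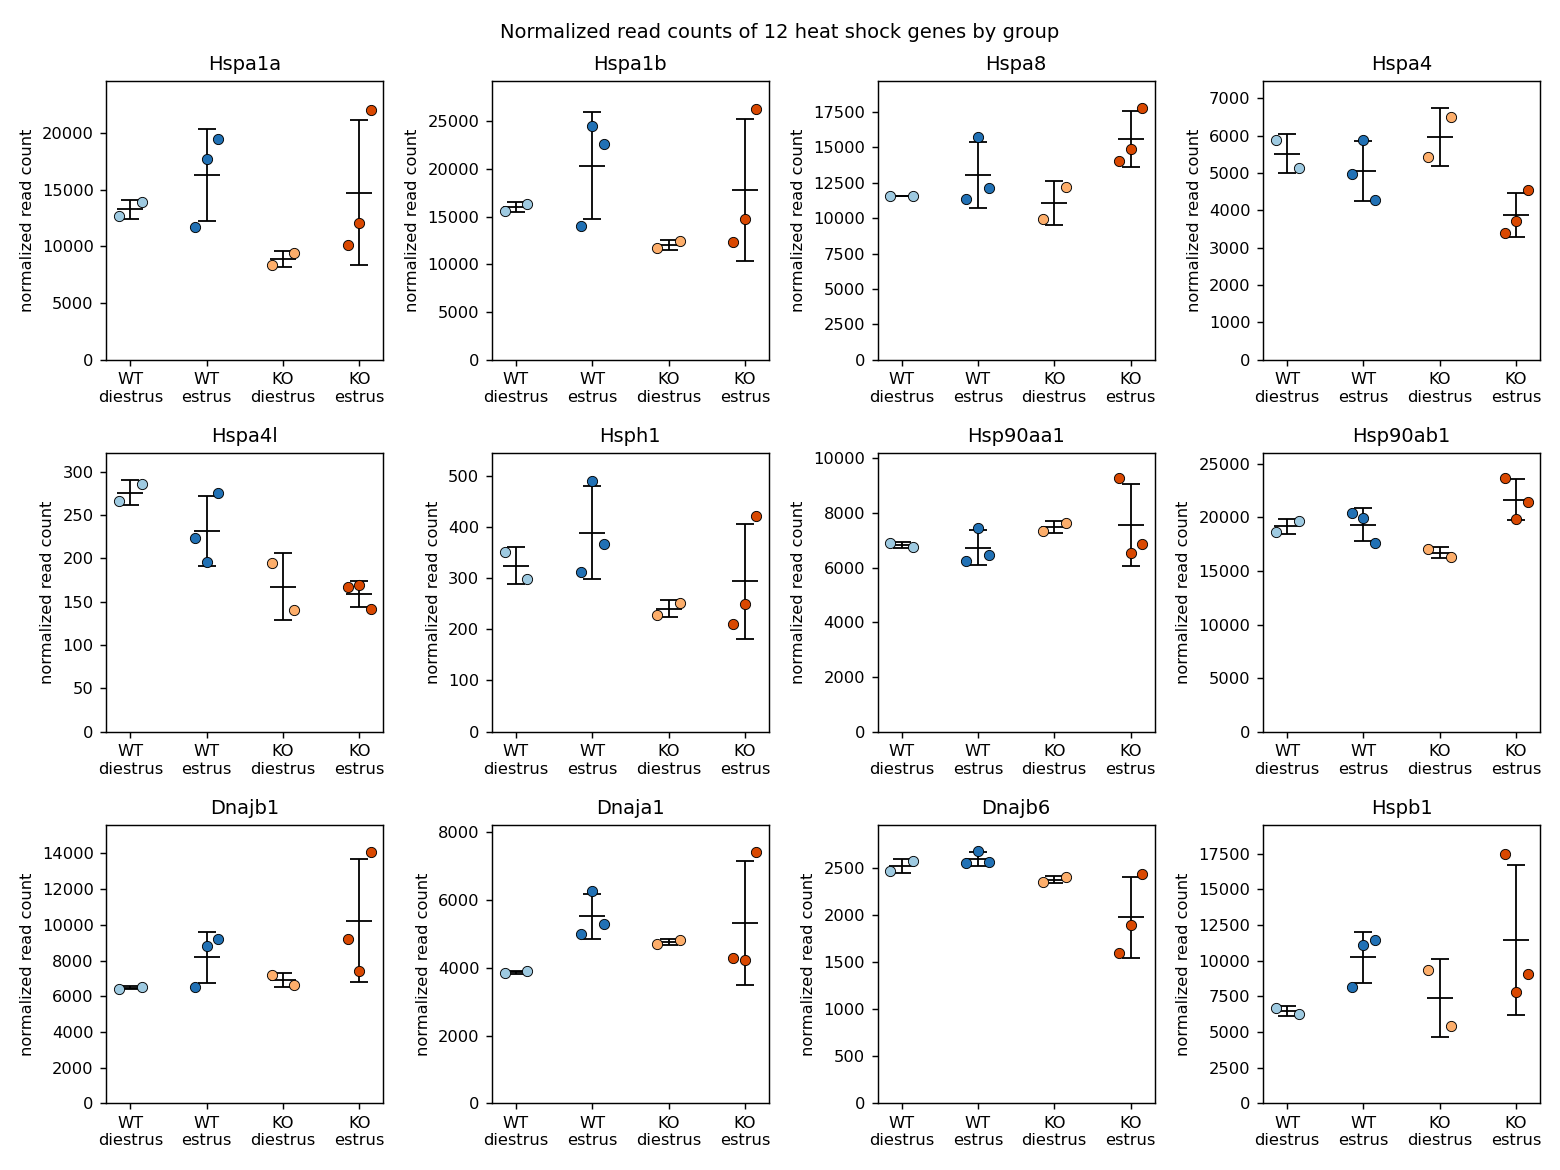
Normalized read counts of 12 genes in the 4 groups; each point is a library, the wide mark is the group mean and the bars are 1 SD (n = 3 at estrus, n = 2 at diestrus), on linear axes from 0. The KO estrus libraries of Hspa1a spread from 10127 to 22068, whereas all 5 KO libraries of Hspa4l, at 140 to 195, lie below the 5 WT libraries, at 196 to 286.

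HSP90 and its cochaperones, which hold steroid receptors ready for hormone, varied little, with Chordc1 as an exception. Hsp90ab1, the constitutive HSP90, was at 20439, 19937 and 17599 normalized counts in WT estrus, 18674 and 19666 in WT diestrus, 23724, 19827 and 21460 in KO estrus, and 17084 and 16322 in KO diestrus. KO diestrus was lowest and KO estrus highest on average, but KO estrus overlapped WT estrus. Its differences were the largest of the family for stage in KO (0.37 on the log2 scale, SE 0.17, limma adjusted p = 0.148), for genotype at diestrus (-0.20, SE 0.19, limma adjusted p = 0.980) and for the interaction (0.36, SE 0.24, limma adjusted p = 0.507), and it passed none. The inducible Hsp90aa1 was between 6253 and 7641 normalized counts in 9 libraries and at 9278 in KO estrus 1. Of its windows 58.5% occur in other genes, mostly in Gm12346.

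Most cochaperones stayed within narrow ranges. Ptges3, known as p23, ran from 1914 to 2376 normalized counts over all 10 libraries. Stip1, which hands clients from HSP70 to HSP90, ran from 2451 to 3113. Fkbp4, an immunophilin of steroid receptor complexes, ran from 1969 to 2660. Ahsa1, which speeds the ATPase of HSP90, ran from 760 to 1020 and had the largest stage difference of the family in WT, 0.12 on the log2 scale (SE 0.15, limma adjusted p = 1.0). Ptges3 had the narrowest range of all 35 genes, with a highest library 1.24 times the lowest.

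Chordc1, an HSP90 cochaperone, had the widest range of this family. It was at 406, 411 and 745 normalized counts in WT estrus, 440 and 561 in WT diestrus, 310, 372 and 433 in KO estrus, and 460 and 455 in KO diestrus. WT estrus 3 stood above every other library, and KO estrus overlapped WT estrus. The KO minus WT difference was the largest of the family at estrus (-0.44 on the log2 scale, SE 0.23, limma adjusted p = 0.255) and averaged over both stages (-0.28, SE 0.18, limma adjusted p = 0.492). Without WT estrus 3 these were -0.15 (limma adjusted p = 0.684) and -0.13 (limma adjusted p = 0.697), and at estrus it was also -0.15 with the length and GC trend removed.

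The 10 J-domain genes had 0 calls in all 6 comparisons (limma; at an unadjusted p under 0.05 there were 3 between the stages in KO, 1 in WT, 1 for KO against WT at estrus and 0 in the others). Of all 15180 tested genes, 5134 had an unadjusted p under 0.05 between the stages in KO (limma, 16.6% called). Between the stages in WT 588 did so (limma, 0% called), and for KO against WT at estrus 3919 (limma, 4.2% called). Dnajb1, the heat-inducible partner of HSP70, was at 6525, 8796 and 9209 normalized counts in WT estrus, 6416 and 6535 in WT diestrus, 9192, 7421 and 14070 in KO estrus, and 7171 and 6648 in KO diestrus. KO estrus 3 was far above all others, and in KO all estrus libraries were above all diestrus libraries. Dnaja1, a J-domain protein of the cytosol, was at 5007, 6265 and 5286 normalized counts in WT estrus against 3841 and 3906 in WT diestrus, with no overlap. That was the largest stage difference of the family in WT, 0.50 on the log2 scale (SE 0.22, limma adjusted p = 1.0). In KO, Dnaja1 was at 4298, 4223 and 7421 at estrus and 4691 and 4830 at diestrus, and the stages overlapped.

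Dnajb6, known for holding back aggregation of polyglutamine proteins, was at 2554, 2689 and 2567 normalized counts in WT estrus, 2472 and 2582 in WT diestrus, 1596, 1894 and 2445 in KO estrus, and 2354 and 2407 in KO diestrus. The lowest WT library, at 2472, was just above the highest KO library, at 2445. The KO minus WT difference was -0.42 on the log2 scale at estrus (SE 0.15, limma adjusted p = 0.110) and -0.25 averaged over both stages (SE 0.12, limma adjusted p = 0.350), the largest of the J-domain genes in both. With KO estrus 3 left out, Dnajb6 was the single gene of the 35 called between the genotypes at estrus (-0.58, limma adjusted p = 0.0338). That fit called 380 higher and 530 lower of all 15162 tested genes. Without KO estrus 1 the difference of Dnajb6 was -0.27 (limma adjusted p = 0.292). Of its windows 42.8% occur in other genes, mostly in Gm2541, so its reads are uncertain. Among the 29 genes with a promoter entry, Dnajb6 is also the gene, apart from the Hspd1 and Hspe1 pair, that holds the longer repeat shown above. A link between that repeat and the level of Dnajb6 was not tested.

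Dnajb4, a heat-inducible J-domain protein, went the other way at diestrus. It was at 1209, 1978 and 1841 normalized counts in WT estrus, 1506 and 1699 in WT diestrus, 1143, 1494 and 1623 in KO estrus, and 2024 and 2275 in KO diestrus. Both KO diestrus libraries lay above all the others. Its differences were the largest of the family for stage in KO (-0.61 on the log2 scale, SE 0.22, limma adjusted p = 0.0722), for genotype at diestrus (0.42, SE 0.24, limma adjusted p = 0.898) and for the interaction (-0.65, SE 0.31, limma adjusted p = 0.363), and none passed. With the length and GC trend removed Dnajb4 was at -0.26 for stage in KO (limma adjusted p = 0.370) and -0.32 in the interaction (limma adjusted p = 0.656). Dnaja2 was likewise higher in KO diestrus, at 3003 and 3426 normalized counts, than in KO estrus, at 1987, 2303 and 2804. The rest were Dnaja4 at 711 to 1469, of whose windows 51.9% lie also in the overlapping gene Wdr61, Dnajb2 at 887 to 1494, Dnajb5 at 147 to 231, Dnajc7 at 1148 to 1661 and Dnajc2, a ribosome-bound J protein, at 305 to 420 normalized counts.

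Small HSPs hold damaged proteins without using ATP, and the BAG proteins release clients from HSP70. Hspb1, the mouse HSP25, was at 8157, 11111 and 11444 normalized counts in WT estrus, 6711 and 6250 in WT diestrus, 17457, 7789 and 9066 in KO estrus, and 9333 and 5445 in KO diestrus. In WT the stages did not overlap, in KO they did, and KO estrus 1 stood above every other library. The stage difference was the largest of the family in WT (0.64 on the log2 scale, SE 0.32, limma adjusted p = 1.0) and in KO (0.59, SE 0.32, limma adjusted p = 0.223) and passed in neither. In KO the difference of Hspb1 rested on single libraries: it was 0.24 without KO estrus 1, 0.98 without KO diestrus 1 and 0.20 without KO diestrus 2, and 0.18 with the length and GC trend removed. Hspb1 had the widest range of the 35 genes, with a highest library 3.21 times the lowest, and 51.7% of its windows occur in other genes, mostly in Hsp25-ps1. Of all tested genes, 8.72% were higher and 8.99% lower at estrus in WT with no overlap, where 5 of the 35 were higher (Hspb1, Bag3, Dnaja1, Hspa2 and Ahsa1) and 1 lower (Dnajc2).

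Hspb8, which works with Bag3 in the removal of aggregated proteins, was at 1424, 1134 and 1002 normalized counts in WT estrus, 912 and 1418 in WT diestrus, 1057, 668 and 565 in KO estrus, and 1017 and 810 in KO diestrus. The genotypes overlapped at both stages. Its KO minus WT difference was the largest of all 35 genes at estrus, -0.67 on the log2 scale (SE 0.24, limma adjusted p = 0.109), and the largest of its family averaged over both stages (-0.50, SE 0.19, limma adjusted p = 0.272) and in the interaction (-0.35, SE 0.38, limma adjusted p = 0.705). The interaction ran from -0.67 without WT diestrus 2 to -0.029 without WT diestrus 1. Bag3 was at 2655, 1772 and 1387 normalized counts in WT estrus, 1329 and 1290 in WT diestrus, 1579, 1599 and 2710 in KO estrus, and 1746 and 1632 in KO diestrus. It was highest in 1 library of each estrus group, and at diestrus KO lay above WT by 0.37 on the log2 scale (SE 0.30, limma adjusted p = 0.972). Bag1 ran from 1621 to 2495 normalized counts.

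The mitochondrial chaperones held 2 of the 3 calls, in opposite directions. Hspe1 (GRCm38 chromosome 1, 55088132 to 55091307, plus strand), which encodes HSP10, the lid of the chaperonin, was at 571, 544 and 552 normalized counts in WT estrus, 528 and 573 in WT diestrus, 756, 625 and 746 in KO estrus, and 473 and 494 in KO diestrus. All 3 KO estrus libraries were above the 7 others. The estrus minus diestrus difference in KO was 0.55 on the log2 scale (SE 0.14, limma adjusted p = 0.0266), a level 1.46 times higher at estrus. Outside the rule for printed differences, and chosen after its values were seen, Hspe1 had a KO minus WT difference at estrus of 0.35 (SE 0.13, limma adjusted p = 0.119) and an interaction of 0.53 (SE 0.20, limma adjusted p = 0.294). The call was lost at differences of 0.50 and 0.51 without KO estrus 1 or 3 (limma adjusted p = 0.0636 and 0.0513), and of 0.52 and 0.58 without KO diestrus 1 or 2 (limma adjusted p = 0.148 and 0.161). In those same fits limma called 8.76%, 17.3%, 1.03% and 0.257% of all tested genes. With the trend on transcript length and GC content removed the stage difference of Hspe1 was 0.40 (limma adjusted p = 0.0670).

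Hspd1, which encodes HSP60, the barrel that HSP10 closes, did not show this rise. It was at 2104, 1974 and 2327 normalized counts in WT estrus, 2057 and 2128 in WT diestrus, 1871, 1932 and 2011 in KO estrus, and 1854 and 1856 in KO diestrus. Its highest library was 1.26 times the lowest. The ratio of Hspe1 to Hspd1, a measure chosen after the values were seen, was therefore 0.404, 0.324 and 0.371 in KO estrus and between 0.237 and 0.276 in the other 7 libraries. It was higher in KO estrus than in WT estrus by 0.48 on the log2 scale (two-sided exact permutation p = 0.1) and than in KO diestrus by 0.48 (two-sided exact permutation p = 0.1), in both cases the smallest p that these numbers of libraries allow. Of the windows of Hspd1 44.8% occur in other genes, mostly in Hspd1-ps3, and 8.2% of those of Hspe1. With the length and GC trend removed these differences were 0.36 and 0.33.

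Hspa9, known as mortalin, the HSP70 that pulls proteins into the mitochondrion (GRCm38 chromosome 18, 34937414 to 34954357, minus strand), was at 6001, 6458 and 5569 normalized counts in WT estrus, 6150 and 6666 in WT diestrus, 3193, 4660 and 4841 in KO estrus, and 6436 and 6588 in KO diestrus. All 3 KO estrus libraries lay below the 7 others, the reverse of Hspe1. The estrus minus diestrus difference in KO was -0.65 on the log2 scale (SE 0.18, limma adjusted p = 0.0357), a level 1.56 times lower at estrus. The KO minus WT difference was -0.53 at estrus (SE 0.17, limma adjusted p = 0.0767) and -0.25 averaged over both stages (SE 0.13, limma adjusted p = 0.385), and the interaction was -0.55 (SE 0.26, limma adjusted p = 0.363), each the largest of the family. In WT the stage difference of Hspa9 was -0.09 (SE 0.18, limma adjusted p = 1.0).

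The call on Hspa9 was lost without WT diestrus 1 or 2, with the difference still at -0.65 (limma adjusted p = 0.0543 and 0.0540), and at -0.66 and -0.63 without KO diestrus 1 or 2 (limma adjusted p = 0.146 and 0.210). With the length and GC trend removed it was -0.54 (limma adjusted p = 0.0587). KO estrus 1 weighed more on the size of these differences. Without it the stage difference of Hspa9 in KO was -0.46 (limma adjusted p = 0.0660), the KO minus WT difference -0.34 at estrus (limma adjusted p = 0.187) and -0.16 averaged over both stages (limma adjusted p = 0.503), and the interaction -0.36 (limma adjusted p = 0.478).

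**Figure D3:**
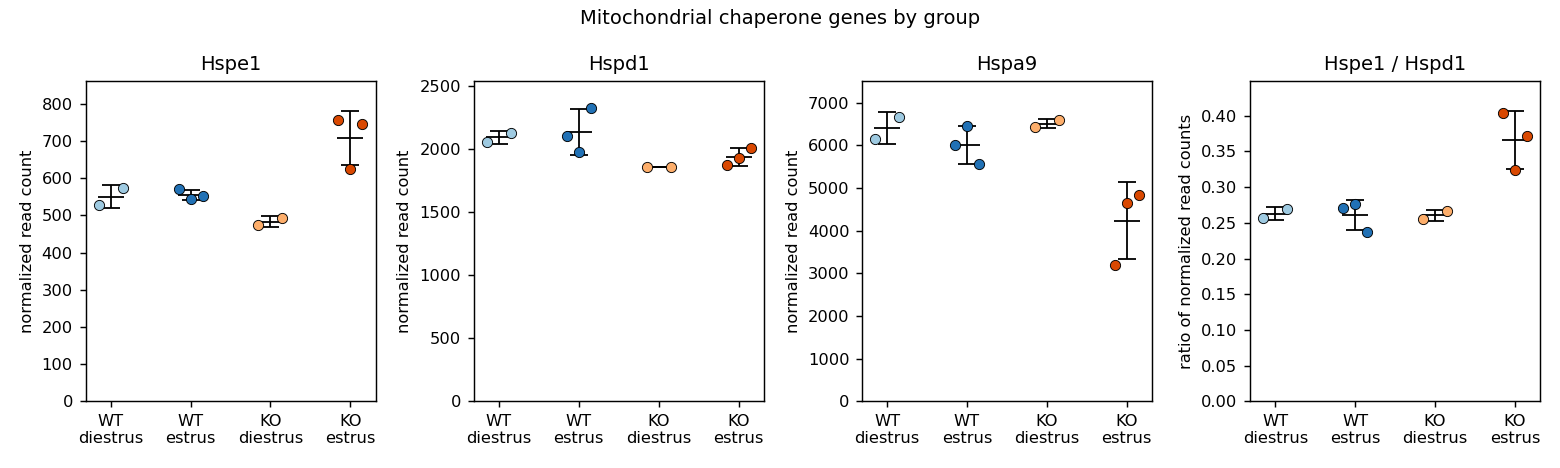
The first 3 panels give normalized read counts of Hspe1, Hspd1 and Hspa9 by group, and the last the ratio of Hspe1 to Hspd1; points are libraries, wide marks group means and bars 1 SD (n = 3 at estrus, n = 2 at diestrus), on linear axes from 0. The KO estrus libraries lie above all others for Hspe1 and for the ratio, and below all others for Hspa9.

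Trap1, the mitochondrial HSP90, was at 1400, 1345 and 1209 normalized counts in WT estrus, 1414 and 1303 in WT diestrus, 1246, 1404 and 1249 in KO estrus, and 1055 and 1127 in KO diestrus. Both KO diestrus libraries lay below the 8 others. The KO minus WT difference at diestrus was the largest of the family, -0.32 on the log2 scale (SE 0.15, limma adjusted p = 0.836). Dnaja3, the mitochondrial J protein, was at 776 in KO estrus 1 and at 997 to 1134 normalized counts in the other 9 libraries.

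The genes of the heat shock factors differed little. Hsf1 was at 823, 618 and 614 normalized counts in WT estrus, 646 and 667 in WT diestrus, 570, 587 and 799 in KO estrus, and 661 and 635 in KO diestrus. WT estrus 1 and KO estrus 3 were the highest, and the groups overlapped in every comparison. Its KO minus WT difference was -0.07 on the log2 scale at estrus (SE 0.17, limma adjusted p = 0.816) and -0.05 averaged over both stages (SE 0.13, limma adjusted p = 0.893), and the interaction was -0.06 (SE 0.26, limma adjusted p = 0.944). Hsf2, at 15 to 40 normalized counts in all libraries, had stage differences of -0.29 in WT (SE 0.43, limma adjusted p = 1.0) and -0.27 in KO (SE 0.43, limma adjusted p = 0.695) and a KO minus WT difference of 0.02 at diestrus (SE 0.47, limma adjusted p = 0.996). The signs of these factor differences turned under some alternatives, so no direction is given. The activity of the factors was not measured.

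**Figure D4:**
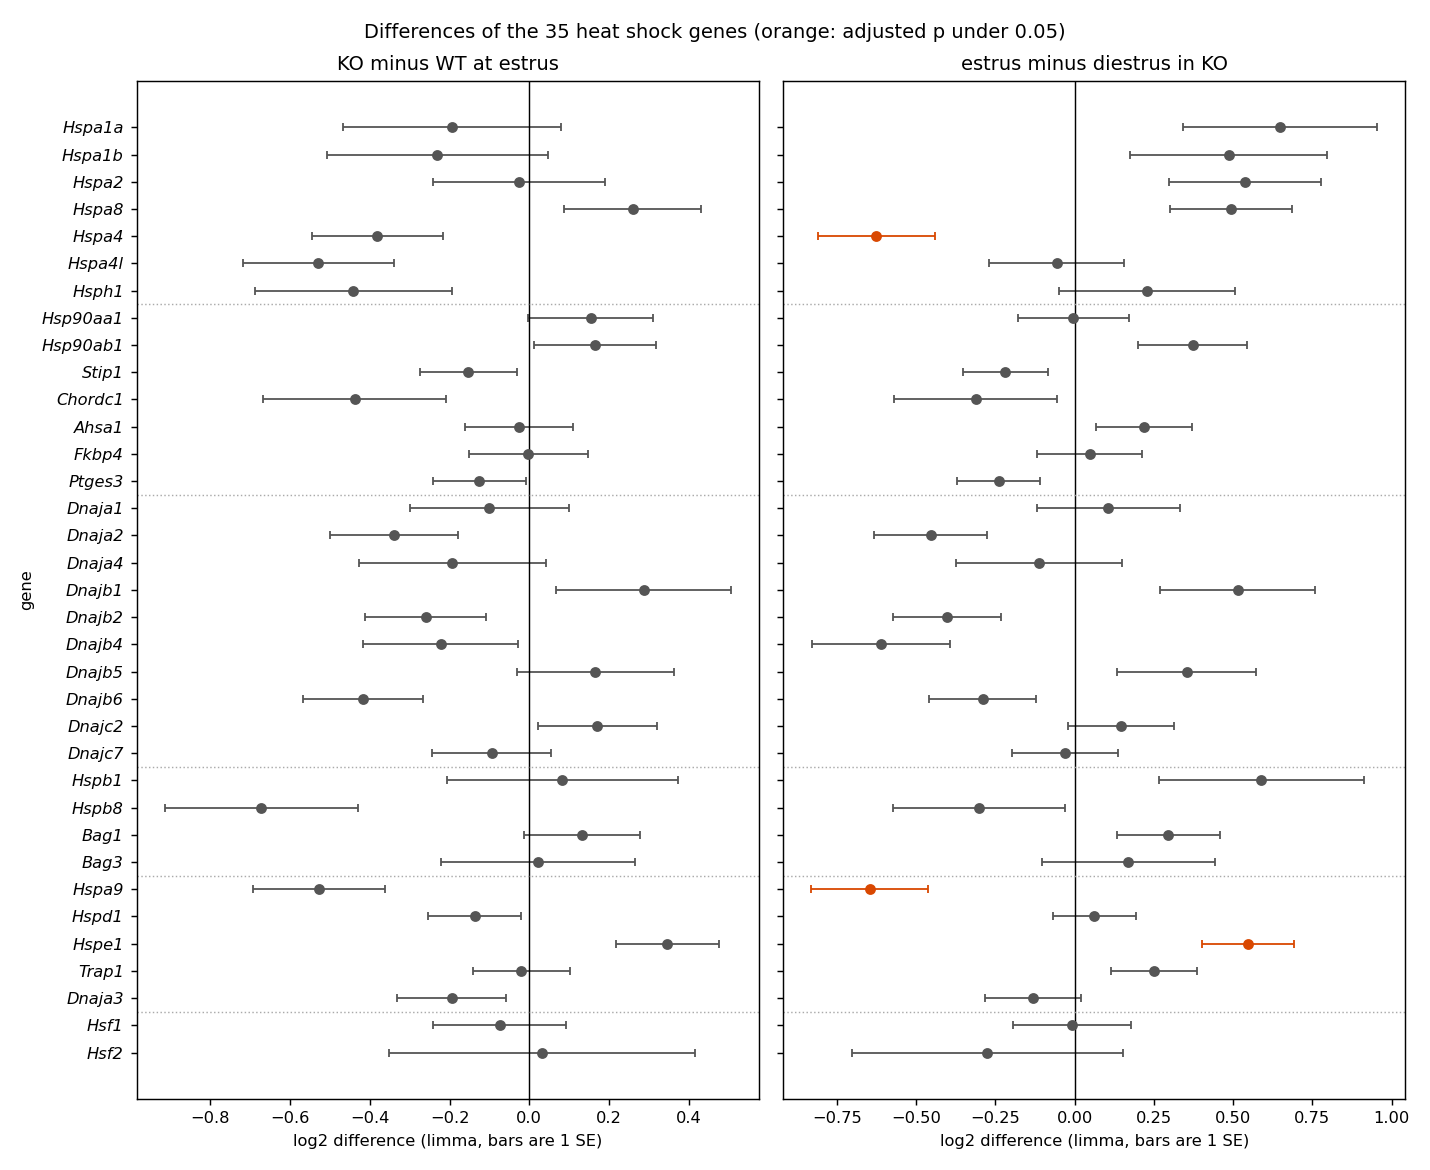
Log2 differences of the 35 genes with 1 SE, for KO minus WT at estrus on the left and estrus minus diestrus in KO on the right; orange marks a limma adjusted p under 0.05 and dotted lines part the families. On the left no gene is orange; on the right Hspe1 is orange above 0, and Hspa4 and Hspa9 are orange below 0.

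Between the stages in KO, 18 of the 35 genes were above 0 and 17 below, with a median of 0.05 on the log2 scale beside -0.01 over all tested genes. The median was -0.06 without KO estrus 3. Without overlap between the stages, 10 genes were higher at estrus and 8 lower, against 25.0% and 26.0% of all tested genes. The 10 higher included Hspa1a, Hspa8, Hsp90ab1, Dnajb1 and Bag1, and the 8 lower included Dnaja2, Dnajb2, Dnajb4, Stip1 and Chordc1. Members of the same family thus lay on both sides.

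Transcript length moved with the stage difference in KO over the whole table. The change of level with each doubling of transcript length, relative to the mean of all libraries, was -0.12, -0.03 and -0.08 on the log2 scale in KO estrus, 0.06 and 0.06 in KO diestrus, -0.03 to 0.03 in WT estrus and 0.03 to 0.04 in WT diestrus. Across all 15146 genes with a known length, Spearman's rho between length and stage difference in KO was -0.350, and across the 35 genes it was -0.298. For KO against WT at estrus these were -0.315 and -0.234, and for the interaction -0.292 and -0.16. Genes are not independent replicates, and these are descriptions. Hspe1, at 964 bases, is among the shortest of the 35 and Hspa4, at 4618 bases, among the longer, while Hspa9 has 3049 bases. With the trend on length and GC content removed, 1 of the 35 genes was called between the stages in KO, Dnajb2, which was lower at estrus. The part of transcript length in these results was otherwise not tested.

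**Figure D5:**
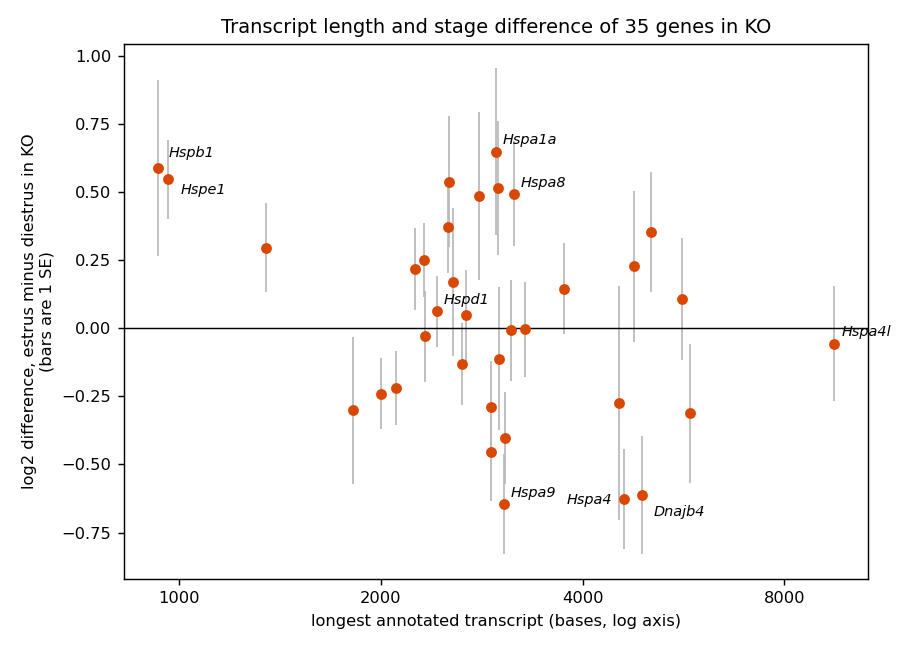
Length of the longest annotated transcript (log axis) against the estrus minus diestrus difference in KO for the 35 genes; bars are 1 SE. Short transcripts such as Hspb1 and Hspe1 lie above 0 and Hspa4 and Dnajb4, among the longer, below 0, while Hspa1a and Hspa9, of nearly the same length, lie at opposite ends.

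Other chaperone genes, listed by family, gave 63 names, of which 62 were in the table and 55 were tested. KO against WT at estrus called 1 higher and 0 lower, beside 4.2% of all tested genes in either direction. This was Pfdn5, a subunit of prefoldin, which carries nascent actin and tubulin, at 959 ± 33.5 normalized counts in WT estrus and 1487 ± 210 in KO estrus (SD, n = 3 each), 0.62 on the log2 scale (SE 0.13, limma adjusted p = 0.0317). The call on Pfdn5 was lost in 12 of 21 alternatives, with 0.36 (limma adjusted p = 0.117) when the length and GC trend was removed. Between the stages in KO 9 were higher and 7 lower, beside 7.67% and 8.95% of all tested genes, and the median over the 55 was -0.06. Those higher included Hscb, which helps build iron-sulfur clusters in mitochondria (1.12 on the log2 scale, limma adjusted p = 0.00862), Stub1, the ubiquitin ligase CHIP of HSP70 clients (0.55, limma adjusted p = 0.0206), and Hsbp1, which binds HSF1 (0.59, limma adjusted p = 0.0213). Those lower included Hspa13, an HSP70 of the microsomes (-1.09, limma adjusted p = 0.0108), Dnajc13, an endosomal J protein (-0.86, limma adjusted p = 0.0113), and Grpel2, an exchange factor of Hspa9 (-0.81, limma adjusted p = 0.0466). Of these 16 calls, 7 were kept with the length and GC trend removed, 6 without KO estrus 1 and 0 without either KO diestrus library. Removing the length and GC trend left 0.24 for Stub1 (limma adjusted p = 0.186) and -0.49 for Dnajc13 (limma adjusted p = 0.108), and also ended the calls on Hsbp1 and Grpel2.

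The subunits of TRiC, the cytosolic chaperonin for actin and tubulin, lay on 1 side where KO estrus was compared with another group. All 8 were below 0 for KO against WT at estrus (median -0.18, 0 called by limma, 3 at an unadjusted p under 0.05) and all 8 between the stages in KO (median -0.15), where Cct6a was called (-0.49 on the log2 scale, SE 0.15, limma adjusted p = 0.0412), 1 of 8 beside 8.95% of all tested genes lower. For KO against WT at estrus limma called 4.2% of all 15180 tested genes, and 3919 had an unadjusted p under 0.05. The call on Cct6a was lost in 11 of 21 alternatives. The 6 prefoldin genes were 5 above 0 and 1 below in both comparisons, with Vbp1 the one below (-0.75 between the stages in KO, limma adjusted p = 0.0167). KO against WT at diestrus and estrus against diestrus in WT called 0 of the 55 (limma, 0 unadjusted in each). Of all tested genes, 0.0395% and 0% were called there, and 899 and 588 had an unadjusted p under 0.05. The TRiC subunits were 5 below 0 and 3 above for KO against WT at diestrus. Between the stages in WT they were 7 below and 1 above (median -0.08).

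Immediate-early genes, transcription factors and regulators known to respond within minutes to growth factors and to handling of tissue, had their calls in the same comparison. Between the stages in KO, 19 of 20 were above 0 (median 0.52) and 4 were called higher: Klf2 (1.50 on the log2 scale, limma adjusted p = 0.00869), Egr3 (1.69, limma adjusted p = 0.0327), Junb (0.65, limma adjusted p = 0.0270) and Btg2 (0.59, limma adjusted p = 0.0411), beside 7.67% of all tested genes higher. Of these 4 calls, 2 were kept with the length and GC trend removed, which left 0.34 for Junb (limma adjusted p = 0.232) and also ended that on Btg2, and 0 were kept without either KO diestrus library. Between the stages in WT, 17 of 20 were also above 0 (median 0.21), where limma called 0, as over all tested genes. For KO against WT at estrus 17 of 20 were above 0 (median 0.30), and limma called 0 (7 at an unadjusted p under 0.05). Of all 15180 tested genes, limma called 4.2% there, and 3919 had an unadjusted p under 0.05. Their summed level was 327841 to 389098 normalized counts in KO estrus, 248336 to 270503 in KO diestrus, 261200 to 327301 in WT estrus and 242137 to 305390 in WT diestrus, so each KO estrus library lay above each of the others, though by little over the highest WT estrus library. Their part in the chaperone differences was not tested.

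Markers of other cells were low beside the luminal ones. The 8 hormone-sensing luminal markers summed to 312948 to 424366 normalized counts. Most of that was the luminal keratins Krt8 and Krt18, so the sum does not tell hormone-sensing from other luminal cells. The 7 macrophage markers summed to 321 to 816, 6 basal markers to 324 to 1171, 5 luminal progenitor markers to 1295 to 2329 and 5 fibroblast markers to 94 to 3101. The 4 endothelial markers summed to 22 to 94, the 2 erythroid markers in the table to 38 to 299, the 2 lymphocyte markers to 57 to 186 and the adipocyte marker Cidec to 0 to 2. In KO, macrophage markers summed to 579 to 816 at estrus and 432 to 435 at diestrus. Cd74 (2.35 on the log2 scale) and C1qb (4.04) were called higher at estrus there. Most of that rise was Cd74, at 215 to 436 normalized counts at estrus and 60 to 71 at diestrus. Not all 7 macrophage markers rose: Csf1r was lower at estrus, at 187 to 205 against 234 to 236 normalized counts, and Cd68 overlapped. The sum therefore does not tell whether macrophages were more frequent. Fibroblast markers in KO were at 107 to 3101 at estrus and 94 to 114 at diestrus, most of it Dcn. Col1a1, Col1a2, Col3a1 and Pdgfra were at 1 to 21 normalized counts in all libraries. That sum therefore does not tell whether fibroblasts were more frequent. Also called between the stages in KO were Ly6a, which encodes the Sca1 of the sort (1.02), Cd14 (0.63) and Itga2, which encodes CD49b (-1.51), and Trbc2, a T cell gene, between the genotypes at estrus (1.13). Of the 5 marker calls between the stages in KO, that on C1qb was the 1 kept with the length and GC trend removed, and 0 were kept without either KO diestrus library. Adgre1, C1qa, C1qb, Lyz2, Cd79a, Cdh5, Kdr, Emcn and Cidec were at 0 in some libraries, and the part of these cells in the chaperone values was not tested.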

How the data were processed

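RNA from sorted mammary cells was sequenced in 10 libraries. The submitters' processing notes name STAR, HTSeq, DESeq2 and the build mm10, without versions. Each deposited value is a score: a read count that the authors normalized and rounded to a whole number, so tests on raw counts were not run. Titles of KO libraries also hold the word WT; library name and genotype entry, which agree, set the groups.

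Symbols, positions and transcript lengths are from GENCODE for GRCm38 (63 genes without a symbol). The test used limma 3.58.1 (R 4.3.3) on log2(value + 1) for 15180 genes with a mean of at least 10. A single model held all 10 libraries with a mean for each group, the prior spread followed the level, and groups of 2 borrow spread from the others. The 6 contrasts were two-sided, with Benjamini-Hochberg adjustment across every tested gene and 0.05 as threshold. The fit was tested on simulated data. Correlations used 100000 permutations. Windows counted as shared match another gene's transcript over 50 bases exactly. Plots were made in matplotlib 3.10.9 under Python 3.11.15.

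The 35 genes and the other lists were chosen with earlier results of these data known. Log2 differences are printed for called genes and for the largest of each family in a contrast; others are named as chosen later. Alternatives were pseudocounts of 0.5 and 5, filters at 0 and at a mean of 50, equal totals, quantile normalization, no trend, library weights, a replicate block, fits to only the groups compared, and omission of single libraries. A fit after removing the dependence of each library on transcript length and GC content was added after seeing the data.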

Additional observations from a re-analysis of the deposited data

How the results depend on the processing

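Of the counts of called genes and medians of the 35 genes, 233 values under the alternatives stayed within the limits set for a change, and 15 did not. These limits did not take the sign of a median into account. The 3 genes called between the stages in KO (16.6% of all tested genes) became 1 with no filter on low values (6.18%), 1 with no trend in the spread (11.1%), 1 with the length and GC trend removed (10.0%), 7 with library weights (25.6%) and 0 with the compared groups alone (12.1%); the cause was not tested, except that no filter adds genes to the adjustment and the compared groups alone leave fewer libraries. Leaving out 1 library gave 0 to 4 genes there, with 0 when KO estrus 1 (8.76% of all tested genes), KO diestrus 1 (1.03%) or KO diestrus 2 (0.257%) was omitted, and 0 to 1 for KO against WT at estrus. For KO against WT at estrus, the fit without KO estrus 3 called 1 of the 35, and 380 higher and 530 lower of all 15162 tested genes. With 1 library left out, medians over the 35 genes ran from -0.22 to -0.0064 for KO against WT at estrus, from -0.06425 to 0.0875 for stage in KO and from -0.14 to 0.0324 for the interaction. Over 21 alternatives the call was lost 6 times for Hspe1 (limma adjusted p from 0.0172 to 0.161), 9 times for Hspa9 (0.0144 to 0.210) and 12 times for Hspa4 (0.0139 to 0.288). No called gene changed direction. Beside the medians for stage in KO and the interaction, the signs that turned among the differences printed were those of the heat shock factors: with the length and GC trend removed Hsf2 was at -0.0877 for KO against WT at diestrus and 0.0496 for stage in KO, and with quantile normalization Hsf1 was at 0.0112 in the interaction. With 1 library left out, Hsf1 ran from -0.23 to 0.0645 at estrus, from -0.12 to 0.0228 averaged over both stages and from -0.21 to 0.0834 in the interaction, and Hsf2 from -0.15 to 0.19 at diestrus and from -0.58 to 0.10 for stage in WT. Same-numbered libraries deviated from their group means with correlations of -0.13 to 0.19, so the numbers were not taken as pairs; with the replicate number as a block, 4 genes (17.2% of all tested) were called between the stages in KO (Hspe1, Hspa9, Dnaja2 and Dnajb4). The compared groups alone could not be used for the average and the interaction. Rounding limits Hsf2, at 15 to 40 normalized counts, more than the other 34 genes, which lie at 140 or above.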
